A study of Mus musculus with 2 samples.

Results

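The genes described here are 30, chosen by name from a list, that make, sense, move, store or export cholesterol or limit its uptake. Of these, 28 were read by a probe set naming that gene alone, among 18193 genes named on the array. The list holds no lipoprotein receptor gene, and its storage gene, Soat2, was not among the 28. The 28 genes were followed in 2 livers of male mice aged 3 months, on a mixed 129Sv/C57BL6 background. One animal carried Tmprss6-/-, a constitutive deficiency made by gene targeting, and the other was a control whose genotype the labels do not spell out. Both had been fasted overnight, and each gave 1 Affymetrix Mouse 430 2.0 array. Each group is 1 animal, so every difference below is between these 2 livers, with no replicate error, no test and no p-value. Tmprss6 encodes matriptase-2, a hepatocyte protease that holds down the iron hormone hepcidin. The list was assembled with results from these arrays already known, and each gene was represented by its brightest probe set (by mean log2 signal), so the counts below describe the list and support nothing about how it was chosen.

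Cholesterol is built from acetyl-CoA through mevalonate and farnesyl diphosphate to squalene, which is closed into lanosterol and trimmed to cholesterol in the endoplasmic reticulum. When sterols in that membrane are low, SCAP escorts the transcription factor SREBP2 to the Golgi, where proteases free its active part, which switches on most enzymes of the pathway. When sterols are high, INSIG proteins hold SCAP back. Oxidised sterols act through the nuclear receptor LXR, which raises exporters of the ABC family and the ubiquitin ligase encoded by Mylip. In mouse liver the pathway is also known to quieten in fasting, a state both animals shared.

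Signals are MAS5 intensities on a linear scale and are given as deposited. Ratios are Tmprss6-deficient over control, taken after scaling both arrays to the same trimmed mean, which changed the ratio by a factor of 0.999. A gene counted as measured when its signal reached a floor of 17.8, the median over both arrays, on at least 1 array, and all 28 genes reached it on both. Probes differ in brightness, so a signal is compared only with the same probe set on the other array. The error available comes from genes with several probe sets, as the SD of their log2 ratios around each other. This SD was 0.46 where the signal was under 64, 0.36 up to 256, 0.32 up to 1024 and 0.18 for brighter genes. It leaves out variation between animals. Tmprss6 itself had a signal of 88.1 in Tmprss6-deficient liver, against 1868.3 in control liver. Whether its probes lie in the deleted part was not given in the sources used here. Hepatocyte markers other than Ass1 were bright on both arrays (Alb 27850 in Tmprss6-deficient and 29345 in control liver). Ass1 read 112.8 and 141.2 in those livers. All 7 markers lay within 1.5-fold, with Tat closest to that limit at 1.47-fold lower. The median log2 ratio of the 7 was -0.13, and 6 were below 0. Of the bile duct markers Krt19, Krt7, Epcam and Sox9, 0 were above the floor on both arrays. Summed signal was 1322 in Tmprss6-deficient and 1837 in control liver over 5 Kupffer cell markers, 712 and 599.2 over 5 endothelial markers, 2313 and 1928 over 5 stellate cell markers, and 277.9 and 659.2 over 4 erythroid markers, in the same order of livers. Single markers drove or hid parts of these sums. Lyve1, read at 152.1 in Tmprss6-deficient and 32.3 in control liver, was 4.70-fold higher, and the other 4 endothelial markers summed to 559.9 and 566.9, with Kdr 1.55-fold lower. Among Kupffer cell markers Clec4f and Vsig4 were 1.76-fold and 1.72-fold lower and Marco 1.76-fold higher, and most of the erythroid sum was Alas2 (232 in Tmprss6-deficient and 593.1 in control liver). The part of these cells in the results below was not tested, and in whole liver fewer cells of a type and less RNA per cell cannot be told apart.

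Synthesis enzymes were lower in Tmprss6-deficient liver along most of the pathway. Of 18 measured enzymes, 11 were lower by 1.5-fold or more, 0 were higher by that much and 7 lay within it. The median log2 ratio was -0.76, against -0.0064 over all 12249 measured genes. Among those genes, 9.27% were lower and 8.81% were higher by 1.5-fold or more. Over the whole list of 28 genes, 14 were lower and 1 was higher by that much, and 13 were lower without Srebf2, whose probe sets pointed in opposite directions. Hsd17b7 and Sc5d, both among the 14, also had sets on both sides of 0. At 2-fold or more, 7 members were lower, all of them synthesis enzymes, against 2.44% of the 10254 genes that reached the floor on both arrays. The difference was uneven along the pathway, from a log2 ratio of -2.77 for Idi1 to -0.023 for Dhcr7, with Ggps1 on the other side of 0 at 0.55.

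Proximal promoters are shown here because transcription is where SREBP2 acts. Those of Idi1 and Msmo1 belong to the enzymes with the largest differences, that of Hmgcs1 was picked because it holds the sterol element, and Insig1, Mylip and Abcg8 stand for sensing, uptake and efflux. They come from RefSeq on GRCm38.p6 and run 5′ to 3′ on the gene's own strand, from 250 bases before the start site to 50 bases after it. Capitals mark the sterol regulatory element TCACNCCAC and the NF-Y box CCAAT, on either strand, so the box reads ATTGG where it lies on the other one. The windows are chr13:119690101-119690400 on the plus strand for Hmgcs1, chr13:8885356-8885655 on the plus strand for Idi1, chr8:64733529-64733828 on the minus strand for Msmo1, chr5:28071162-28071461 on the plus strand for Insig1, chr13:45389492-45389791 on the plus strand for Mylip, and chr17:84682871-84683170 on the plus strand for Abcg8.
Hmgcs1 promoter: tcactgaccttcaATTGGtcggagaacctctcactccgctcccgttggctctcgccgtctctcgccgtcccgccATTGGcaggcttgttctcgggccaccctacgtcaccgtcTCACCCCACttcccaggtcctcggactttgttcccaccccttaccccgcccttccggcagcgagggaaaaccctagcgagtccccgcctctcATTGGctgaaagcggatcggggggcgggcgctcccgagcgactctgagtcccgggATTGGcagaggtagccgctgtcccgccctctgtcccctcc
Idi1 promoter: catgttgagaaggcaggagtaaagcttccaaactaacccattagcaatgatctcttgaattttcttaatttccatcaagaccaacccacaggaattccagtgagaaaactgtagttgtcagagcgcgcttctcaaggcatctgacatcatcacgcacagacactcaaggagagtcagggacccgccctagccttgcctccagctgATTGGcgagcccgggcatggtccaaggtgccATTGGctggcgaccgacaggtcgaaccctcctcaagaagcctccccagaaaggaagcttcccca
Msmo1 promoter: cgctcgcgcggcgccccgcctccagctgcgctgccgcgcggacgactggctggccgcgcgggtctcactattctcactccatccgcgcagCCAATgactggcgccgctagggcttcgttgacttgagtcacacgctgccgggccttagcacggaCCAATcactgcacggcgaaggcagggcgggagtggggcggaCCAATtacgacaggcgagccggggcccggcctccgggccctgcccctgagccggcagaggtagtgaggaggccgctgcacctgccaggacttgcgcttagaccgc
Insig1 promoter: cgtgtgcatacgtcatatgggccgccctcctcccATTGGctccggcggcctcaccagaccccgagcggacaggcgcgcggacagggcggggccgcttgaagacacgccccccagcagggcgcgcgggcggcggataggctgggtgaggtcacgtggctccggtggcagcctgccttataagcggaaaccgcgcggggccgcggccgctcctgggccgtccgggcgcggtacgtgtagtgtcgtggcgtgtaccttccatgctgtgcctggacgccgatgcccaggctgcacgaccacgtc
Mylip promoter: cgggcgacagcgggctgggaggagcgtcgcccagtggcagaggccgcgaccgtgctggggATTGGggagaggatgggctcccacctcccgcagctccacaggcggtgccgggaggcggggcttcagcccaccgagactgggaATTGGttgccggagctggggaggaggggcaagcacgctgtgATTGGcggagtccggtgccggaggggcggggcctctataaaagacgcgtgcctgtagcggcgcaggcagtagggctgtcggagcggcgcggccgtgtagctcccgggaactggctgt
Abcg8 promoter: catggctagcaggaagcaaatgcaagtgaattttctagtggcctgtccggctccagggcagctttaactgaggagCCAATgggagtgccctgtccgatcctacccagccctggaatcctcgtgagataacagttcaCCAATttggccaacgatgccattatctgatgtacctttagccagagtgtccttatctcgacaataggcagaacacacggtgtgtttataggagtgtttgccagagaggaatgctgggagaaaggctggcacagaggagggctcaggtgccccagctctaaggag

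A promoter window was found for 24 of the 30 genes, 16 of them synthesis enzymes. The 16 include Acat2, which the array did not measure. No window was found for Fdps, Fdft1 and Sqle, each lower by 2-fold or more, or for Stard4, Npc1 and Soat2. The motif counts therefore leave out these genes. Some genes, among them Dhcr7, Insig2, Pmvk, Scap and Abcg8, had several windows, and a motif counted where any window of the gene held it. The sterol element TCACNCCAC was found in 1 of the 24 members with a window, Hmgcs1, where TCACCCCAC begins 137 bases before the start site. Over all 27025 genes with a window, 1.44% held it. The NF-Y box, bound by a factor that works beside SREBP2, was far more common. It occurred in 15 of the 16 synthesis enzymes and in 6 of the 8 other members, against 41.1% of all genes with a window and 42.3% of the 9918 measured genes with one. Hmgcs1 held 4 such boxes, Msmo1 3 and Idi1 2. In Idi1 both boxes lie on the opposite strand, beginning 45 and 14 bases before the start site, and in Msmo1 they lie on the gene's own strand at 160, 96 and 55 bases. The box did not separate genes that were lower from those that were not, since Dhcr7, Ebp, Tm7sf2, Insig2 and the higher gene Mylip had it too. In Dhcr7, Insig2, Pmvk and Abcg8, other windows of the gene lacked the box. The Sp1 box GGGCGG was found in 14 of the 16 enzymes, against 65.7% of measured genes, and the E-box CACGTG in 3 of 16, against 11.7%. A match is only a run of letters in this window, and the promoters of these genes may carry sites of other spelling.

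**Figure D1:**
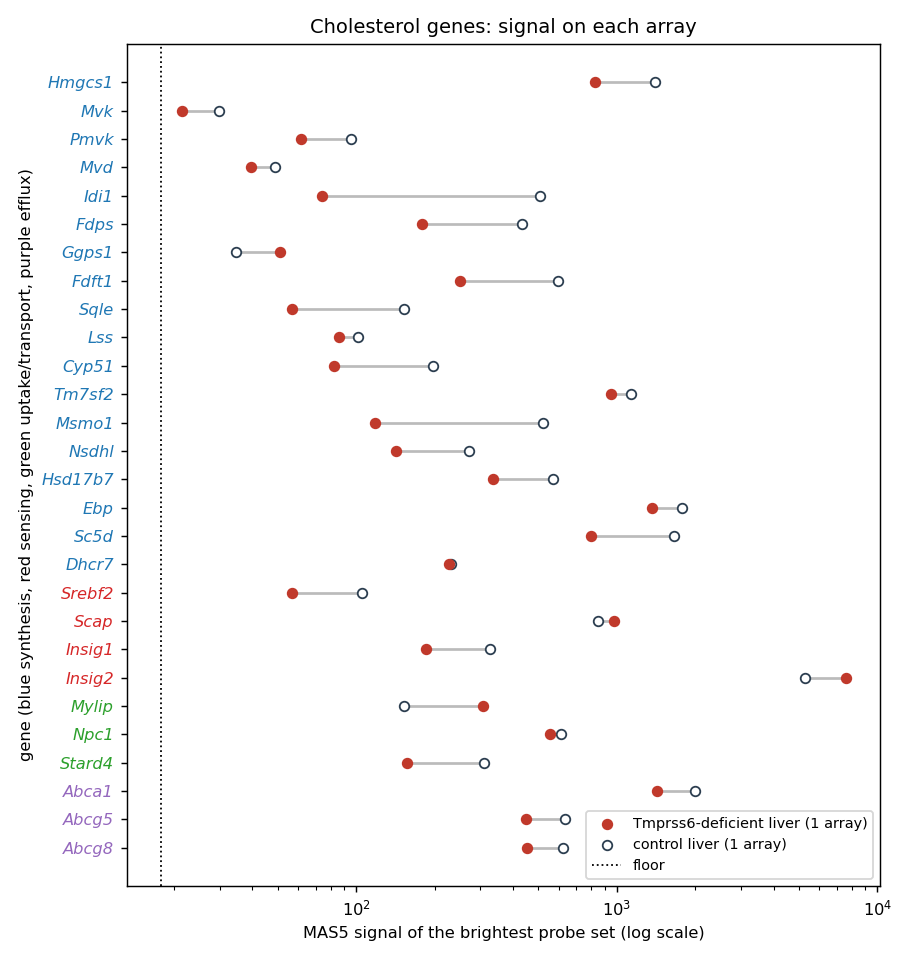
MAS5 signal of the brightest probe set of each of 28 cholesterol genes (log axis), with filled points for the Tmprss6-deficient liver and open points for the control liver, 1 array each, and synthesis enzymes listed in pathway order. Filled points lie left of open ones for 24 genes, with the widest gap at Idi1 (74.0 against 505.7), and right of them for Ggps1, Scap, Insig2 and Mylip.

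The early, mevalonate part of the pathway leads to farnesyl diphosphate. Hmgcs1, which joins acetoacetyl-CoA and acetyl-CoA into HMG-CoA, had a signal of 822.5 in Tmprss6-deficient liver and 1399.8 in control liver. It was 1.70-fold lower, a log2 ratio of -0.77, and its 3 other measured probe sets were lower as well, at -0.64, -0.62 and -0.46. The brightest set is of the type whose probes can bind other transcripts, and its plain sets read 743.0 in Tmprss6-deficient and 1155.4 in control liver, and 218.3 and 300.4 in those livers, the last pair within 1.5-fold. The next 3 enzymes, which phosphorylate mevalonate and decarboxylate it, were dimmer and closer between the livers. Mevalonate kinase, Mvk, read 21.4 in Tmprss6-deficient and 29.7 in control liver, near the floor, with a log2 ratio of -0.47. Phosphomevalonate kinase, Pmvk, read 61.2 and 95.9 in those livers and was 1.57-fold lower, the smallest difference past 1.5-fold on the list, and at -0.53 on the log2 scale it no longer passed when the floor was added as a pseudocount. The decarboxylase gene Mvd read 39.5 in Tmprss6-deficient and 49.0 in control liver, a log2 ratio of -0.31. For Mvk and Mvd the ratio was about the size of the probe set spread at that signal or below it.

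Idi1, the isomerase that turns isopentenyl diphosphate into its reactive partner, differed more than any other member. Its signal was 74.0 in Tmprss6-deficient liver and 505.7 in control liver, 6.84-fold lower, and 45.1 and 238.1 on its other probe set, a log2 ratio of -2.40. Ordered by ratio, it stood at rank 8 from the lowest of the 10254 genes that reached the floor on both arrays. Fdps, which condenses these units into farnesyl diphosphate, read 179.0 in Tmprss6-deficient and 432.0 in control liver and was 2.42-fold lower on its 1 measured probe set. Ggps1 leaves the sterol route, lengthening farnesyl to geranylgeranyl diphosphate for protein prenylation. It read 51.0 in Tmprss6-deficient and 34.7 in control liver, a log2 ratio of 0.55, and its 4 dim probe sets ranged from -0.20 to 1.01, on both sides of 0. From Hmgcs1 to Fdps, 6 of 6 measured enzymes had ratios below 0 and 4 were lower by 1.5-fold or more, with a median of -0.71.

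The squalene steps commit the pathway to sterols. Squalene synthase, Fdft1, read 250 in Tmprss6-deficient and 595.8 in control liver, 2.39-fold lower, and 158.4 and 347.4 on its other measured set, a log2 ratio of -1.13. Squalene epoxidase, Sqle, a rate-limiting oxygen-using step, read 56.7 in Tmprss6-deficient and 152.1 in control liver on its 1 probe set and was 2.69-fold lower. These values place both enzymes among the larger differences of the list, Sqle at rank 74 from the lowest of all 10254 genes. Lanosterol synthase, Lss, which closes the ring, read 86.0 in Tmprss6-deficient and 101.9 in control liver on its brightest set, a log2 ratio of -0.25. Its dimmer measured set read 21.4 and 40.7, a ratio of -0.93, so the size of the Lss difference depends on which set is read.

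The enzymes after lanosterol remove methyl groups and move double bonds. Lanosterol demethylase, Cyp51, read 81.9 in Tmprss6-deficient and 197.6 in control liver and was 2.42-fold lower. A further set was above the floor only in control liver (17.1 and 78.0) and at least 4.38-fold lower, and a set close to the floor (20.2 and 21.5) had a log2 ratio of -0.092. Tm7sf2, a sterol reductase acting on the next intermediate, read 948.1 in Tmprss6-deficient and 1132.4 in control liver, a log2 ratio of -0.26. Msmo1, the oxidase that starts removal of the methyl groups at carbon 4, read 117.9 in Tmprss6-deficient and 521.1 in control liver. It was 4.43-fold lower and stood at rank 19 from the lowest of 10254 genes, on its 1 measured probe set. Its partners in the same reaction cycle differed less. The dehydrogenase gene Nsdhl read 142.4 in Tmprss6-deficient and 272.2 in control liver, 1.91-fold lower. The ketoreductase gene Hsd17b7 read 335.3 and 567.0 in those livers on its brightest set, 1.69-fold lower. Its 2 other sets were split, with log2 ratios of -0.37 and 0.60, and the mean of its 3 measured sets was -0.18.

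The last steps carry the sterol to cholesterol. The isomerase gene Ebp read 1371.3 in Tmprss6-deficient and 1788.0 in control liver, a log2 ratio of -0.38, on 1 bright probe set. The desaturase gene Sc5d read 793.5 in Tmprss6-deficient and 1661.2 in control liver, 2.10-fold lower. Its second set was lower too (214.6 and 342.9, a ratio of -0.68), its dimmest was on the other side (51.9 and 42.7, a ratio of 0.28), and the mean over the 3 was -0.49. Dhcr7, the reductase that gives cholesterol from 7-dehydrocholesterol, read 227.0 in Tmprss6-deficient and 230.3 in control liver. Sc5d and Dhcr7, which act next to each other, therefore had the ratios -1.07 and -0.023, each on its brightest set. After lanosterol, 5 of 8 enzymes were lower by 1.5-fold or more and 8 of 8 had ratios below 0, with a median of -0.85.

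**Figure D2:**
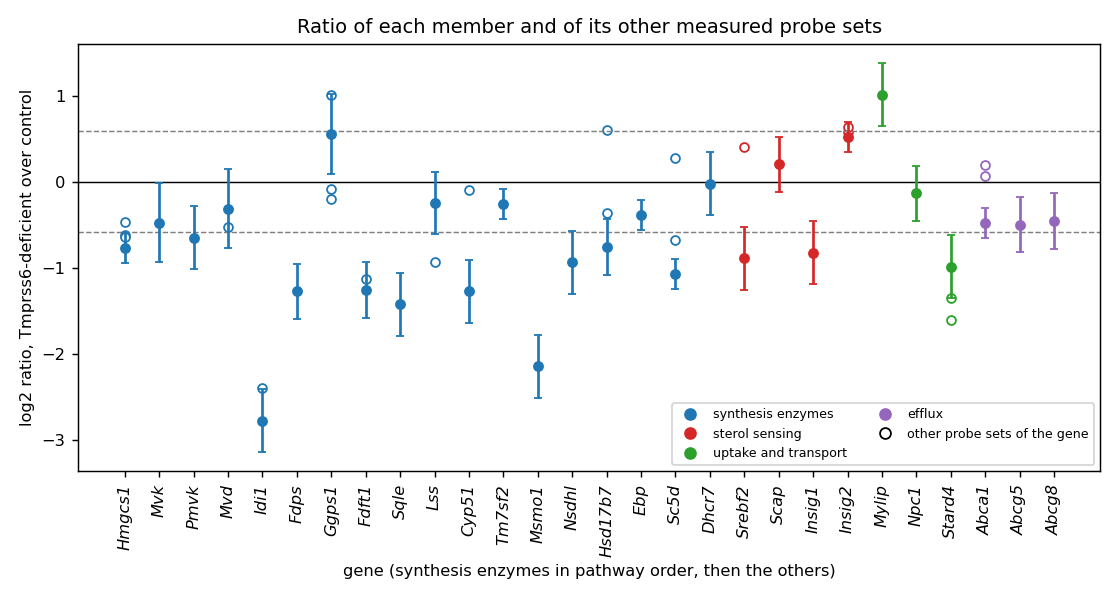
Log2 ratio of Tmprss6-deficient over control liver for each gene, 1 array per liver, with synthesis enzymes in pathway order from left to right. Filled points are the brightest probe set with a bar of 1 SD between probe sets of a gene at that signal, open points are other sets above the floor on both arrays, and dashed lines mark 1.5-fold. Idi1 (-2.77) and Msmo1 (-2.15) lie lowest, while the sets of Ggps1, Hsd17b7, Sc5d, Srebf2 and Abca1 fall on both sides of 0.

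Genes that sense sterols did not all differ one way. Srebf2, which encodes SREBP2 and is itself an SREBP2 target, read 56.9 in Tmprss6-deficient and 105.3 in control liver on its brightest set, 1.85-fold lower. Its other set pointed the other way, with 75.9 in Tmprss6-deficient and 57.3 in control liver and a log2 ratio of 0.40, so no direction is given for this gene. Scap, the escort, read 978.6 in Tmprss6-deficient and 850.1 in control liver, a ratio of 0.20. The INSIG genes stood on opposite sides. Insig1, which SREBP2 induces, read 184.7 in Tmprss6-deficient and 326.3 in control liver and was 1.77-fold lower on its 1 probe set. Insig2, which in mouse liver has a transcript raised by fasting and lowered by insulin, read 7595.4 in Tmprss6-deficient and 5284.3 in control liver, 1.44-fold higher. Its 2 other sets had log2 ratios of 0.64 (7886.5 in Tmprss6-deficient and 5049.1 in control liver) and 0.58 (5048.4 and 3371.7). The log2 ratio of 0.52 on the brightest set compares with an SD between probe sets of 0.18 for genes this bright. With loess or quantile normalization it was 0.61 or 0.75, past 1.5-fold.

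Among genes of uptake and movement, Mylip was the member higher by 1.5-fold or more. Its product, also called IDOL, marks lipoprotein receptors for destruction and so limits uptake. Mylip read 307.8 in Tmprss6-deficient and 152.6 in control liver on its 1 probe set, 2.01-fold higher, at rank 200 from the highest of 10254 genes. Stard4, a soluble carrier of cholesterol that SREBP2 induces, read 156.7 in Tmprss6-deficient and 310.3 in control liver, 1.98-fold lower. Its other 2 sets were lower as well, by 2.54-fold (98.2 and 249.4) and 3.04-fold (24.8 and 75.3). Npc1, which releases cholesterol from lysosomes, read 554.9 in Tmprss6-deficient and 608.7 in control liver, a log2 ratio of -0.14.

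The exporters differed by less than 1.5-fold. Abcg5 and Abcg8 encode the partner subunits of the transporter that moves sterols into bile. Abcg5 read 448.9 in Tmprss6-deficient and 633.0 in control liver, and Abcg8 read 452.6 and 619.7 in those livers. Their log2 ratios were -0.50 and -0.46, closer to each other than the probe set spread of 0.32 at that signal. They are transcribed away from each other on chromosome 17 from start sites 110 bases apart, both inside the Abcg8 window printed above. That window holds 2 NF-Y boxes. Mvk shares its region with Mmab, an enzyme of vitamin B12 metabolism, in the same way, with start sites 242 bases apart on chromosome 5. Mmab was above the floor only in control liver (12.8 in Tmprss6-deficient and 33.2 in control liver) and at least 1.87-fold lower. Abca1, which loads cholesterol onto apolipoprotein A-I, read 1426.4 in Tmprss6-deficient and 1988.8 in control liver on its brightest set, a ratio of -0.48. Its dimmer sets read 153.2 and 134.2, and 65.8 and 62.6, with ratios of 0.19 and 0.070. Probe sets naming Acat2, the cytosolic thiolase that opens the pathway, or Soat2, which makes cholesteryl esters, alone were not in the annotation used, and neither is analysed here.

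**Figure D3:**
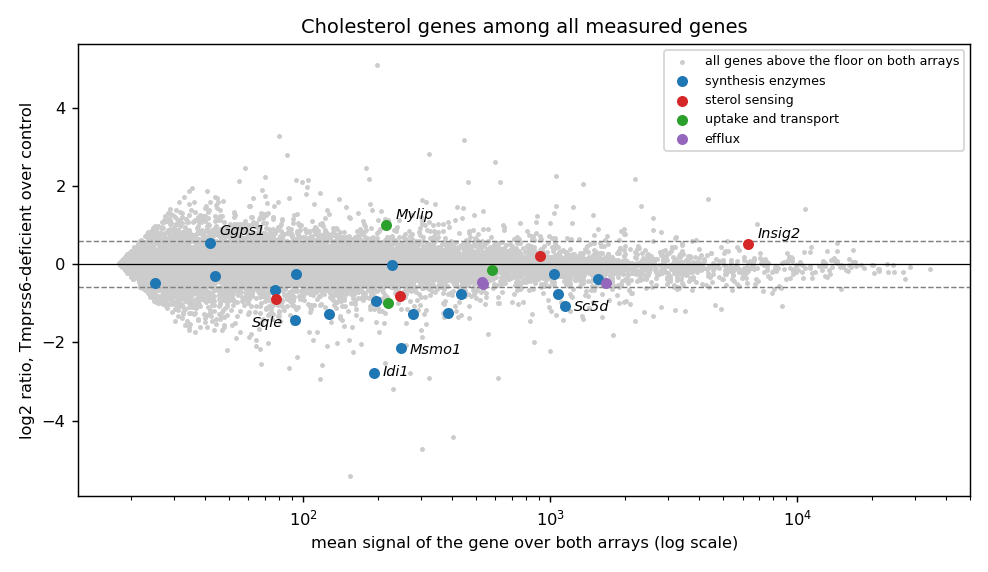
Log2 ratio of Tmprss6-deficient over control liver against mean signal (log axis) for the 10254 genes reaching the floor on both arrays in grey, with 28 cholesterol genes coloured by role and dashed lines at 1.5-fold. Idi1, Msmo1 and Sqle lie at the lower edge of the cloud for their signal, Insig2 near its upper edge among bright genes, and the exporters at about -0.5 on their brightest sets.

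Agreement between probe sets was the check the arrays allow. For 13 members a further set was above the floor on both arrays, 22 sets in all, and 15 of those pointed the same way as the brightest. Reading the second brightest set alone, it pointed the same way in 10 of the 13, against 60.9% of all 4369 genes with such a set. The 10 include Cyp51, whose second set lay close to the floor with a ratio of -0.092. The list was made with results known, and signs may match more often at large ratios. The 2 shares are therefore not alike and test nothing about the members. Of the 8 members lower by 1.5-fold or more that had another set, 5 had every set lower, namely Hmgcs1, Idi1, Fdft1, Cyp51 and Stard4. The exceptions were Hsd17b7, Sc5d and Srebf2. A further 15 members rest on 1 measured set, among them Fdps, Sqle, Msmo1, Nsdhl, Insig1 and Mylip. The brightest set was of a type whose probes can bind other transcripts for Hmgcs1, Fdft1 and Hsd17b7 (marked _x_) and for Lss (marked _s_). With plain sets only, Lss had a log2 ratio of -0.93.

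Related genes outside the list were set beside it. Genes that process SREBP or work with it had a median log2 ratio of 0.079 over 9 measured genes, with 0 past 1.5-fold in either direction. The coat protein gene Sec24d (0.46), Nfyb (-0.31), which encodes a subunit of NF-Y, Sp1 (0.24) and Sec23a (0.23) had the largest ratios, and the 1 other measured set of Nfyb and of Sp1 pointed the opposite way. For other sterol-responsive genes the median was -0.25 over 10, with 3 lower and 1 higher by 1.5-fold or more. Rdh11, a retinol dehydrogenase, read 82.1 in Tmprss6-deficient and 137.8 in control liver, 1.68-fold lower, and Cyb5b, a cytochrome b5, read 586.0 and 921.4, 1.57-fold lower. Aacs, which activates acetoacetate for lipid synthesis, stood against these, with 205.4 in Tmprss6-deficient and 52.5 in control liver, 3.91-fold higher, and its other measured set was also higher.

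The LXR axis had a median of 0.12 over 7 genes, with 1 lower by 1.5-fold or more. That gene was Srebf1, which encodes the SREBP that drives fatty acid synthesis, at 127.8 in Tmprss6-deficient and 269.5 in control liver, 2.11-fold lower. The receptor gene Nr1h3 (LXR-alpha) read 327.7 in Tmprss6-deficient and 325.6 in control liver. Pltp, Scd1 and Lpcat3, genes of lipid transfer and remodelling that LXR induces, had ratios of -0.44, 0.37 and 0.29. For fatty acid synthesis genes, which include Srebf1, the median was 0.13 over 12, 2 lower and 2 higher, with Me1, the malic enzyme gene, 2.39-fold higher, Pklr, the liver pyruvate kinase gene, 1.61-fold higher and the elongase gene Elovl6 1.60-fold lower, with 1 of its 2 other sets in the opposite direction. The synthesis enzymes' median of -0.76 thus stood beside medians near 0 for fatty acid synthesis and for sterol trafficking, which had -0.045 over 10 genes with 0 past 1.5-fold. In that list Stard3 (0.39), Lipa (0.32), Scarb1 (0.25) and Scp2 (-0.18) had the largest ratios, but 0 of 2 other measured sets of Scarb1 and 0 of 3 of Scp2 pointed the same way.

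Branches leaving the pathway at the isoprenoid stage had a median of 0.052 over 13 genes. The protease gene Rce1, which trims prenylated proteins, read 122.5 in Tmprss6-deficient and 41.6 in control liver, 2.94-fold higher on its 1 measured set, and the other 12 lay within 1.5-fold, with ratios of 0.49 for Rabggtb, -0.49 for Pdss2 and 0.43 for Fntb. Genes that turn cholesterol into bile acids, listed with the regulators Nr0b2 and Nr1h4, had a median of -0.16 over 10 genes. By 1.5-fold or more, 0 were higher and 3 were lower. These were Cyp7a1, the first enzyme of the main route, at 224.6 in Tmprss6-deficient and 1672.4 in control liver, Cyp7b1 of the alternative route at 2120 and 4783.5, and the repressor gene Nr0b2 at 261.2 and 591.6. The bile acid receptor gene Nr1h4 had a ratio of 0.52.

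**Figure D4:**
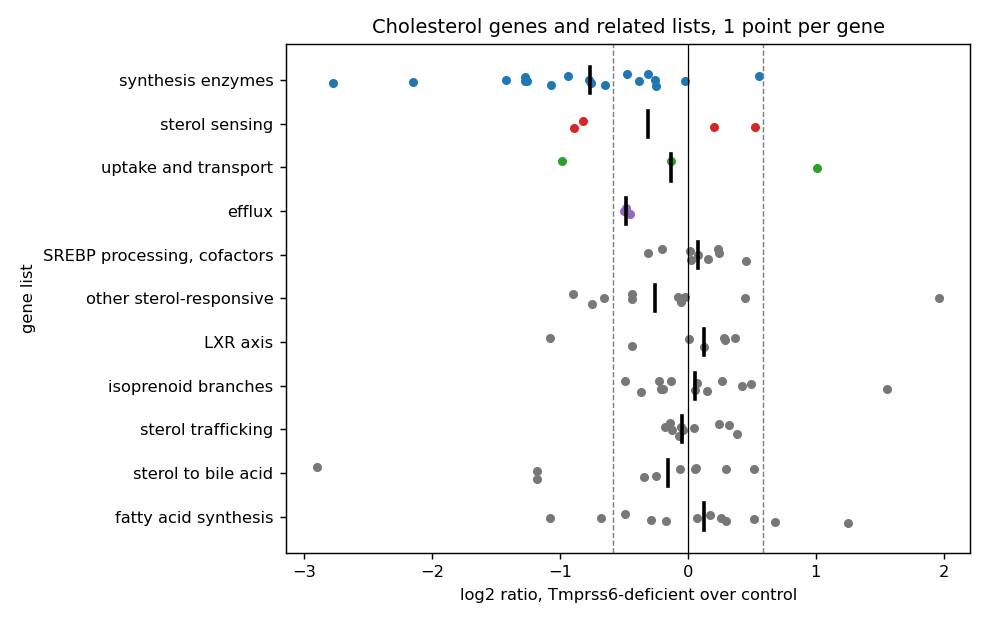
Log2 ratio of Tmprss6-deficient over control liver for each measured gene (1 point per gene, spread vertically at random within a row) in the roles of the cholesterol genes and in 7 related lists, with a black bar at each median and dashed lines at 1.5-fold. The synthesis enzymes have the lowest median of the 11 rows (-0.76), the 3 exporters sit together near -0.48, and the bile acid row has a median of -0.16 with Cyp7a1 far to the left at -2.90. Points are brightest probe sets, and the 2 other measured sets of Abca1 had ratios of 0.19 and 0.070.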

How the data were processed

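Liver RNA from 1 Tmprss6-deficient and 1 control mouse, grouped by sample title, was hybridised to 1 array each. The authors deposited 1 intensity value for each probe set and array. Per the submitters' processing notes these are MAS5 signals, with version, settings and detection calls not given in the sources used here. Of 45101 probe sets, 34958 name 1 gene in the platform annotation, and 932 name several and were left out. From the deposited signals, arrays were scaled to a common mean after trimming 2% at each end, signals under the floor (median of all probe sets but 64 controls) were raised to it, and log2 was taken. The brightest probe set stood for a gene, and a value with 1 array under the floor is written "at least". Calculations used Python 3.11.15, numpy 2.4.6, pandas 2.3.3 and statsmodels 0.14.6, and were tested on simulated data. Promoters were matched by symbol to RefSeq windows of GRCm38.p6.

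No test was possible with 1 array per group, and the number of arrays limits the precision. Members and lists were chosen with earlier results of these data known. Named genes were every member, Tmprss6, and up to 4 genes of each related list with the largest ratios. The cell type markers and Nr1h3 were added outside that ranking. Alternatives covered scaling, the floor, the choice of probe set and the genes counted.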

Additional observations from a re-analysis of the deposited data

How the results depend on the processing

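Settings for scaling, floor, probe set choice and genes counted were varied 1 at a time in 11 planned ways, plus 2 chosen after seeing the data, genes with a mean signal of 64 or more and the list without Srebf2. Over 28 members, 22 kept a ratio below 0 and 3 above 0 under every planned setting, the exceptions being Ggps1, Srebf2 and Abca1. Hsd17b7 and Sc5d, among the 22, also had a measured set above 0, which no planned setting read alone. Of the 14 lower by 1.5-fold or more, 9 stayed so in every planned setting that gave them a value (Hmgcs1, Idi1, Fdps, Fdft1, Sqle, Msmo1, Nsdhl, Insig1 and Stard4), as did the higher gene Mylip. Of these, Fdps, Sqle, Msmo1, Nsdhl, Insig1 and Mylip rest on 1 measured set each. The settings for probe set choice could only repeat their values or give none, so they were no check on these genes. That holds for all 15 members with 1 measured set. All 28 members reached the floor on both arrays, so the 30th percentile floor and the restriction to such genes repeated the main values. The 70th percentile floor repeated them or gave none. These settings were therefore no check on the ratios. The second brightest measured probe set exists for only 13 members. There 6 were lower by 1.5-fold or more, the median log2 ratio was -0.64 for synthesis enzymes and 0.30 for the other members, a reversed sign over 4 genes, and Srebf2 had 0.40. The mean of all measured sets gave medians of -0.60 and -0.19, with 12 members lower by 1.5-fold or more. The floor at the 70th percentile, and the restriction to mean signals of 64 or more, left 15 enzymes and a median of -0.94. Quantile normalization and loess each put 2 members higher by 1.5-fold or more, the second being Insig2. Of the scaling settings, the median of each array shifted the ratio of all genes most, by -0.050. No paired analysis was possible because each group has 1 array. Signals near the floor (Mvk, Mvd, Ggps1) carry the widest probe set spread, and saturation could not be assessed.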
